A study of Rattus norvegicus with 32 samples.

Results

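Messenger RNA for 4 enzymes of antioxidant defence, Hmox1, Nqo1, Sod1 and Sod2, was followed in the renal cortex of rats. The 4 genes were picked by identifier from the 26404 Ensembl genes counted, each was on the chromosome expected for it, and all 4 were among the 14776 genes that passed the filter on low counts. Hmox1 (ENSRNOG00000014117) is listed at chr19:25622556-25629372 of the rat build rn5, Nqo1 (ENSRNOG00000012772) at chr19:49291903-49306795, Sod1 (ENSRNOG00000002115) at chr11:33982764-33988340 and Sod2 (ENSRNOG00000019048) at chr1:51827380-51834230, all on the plus strand. Reads were counted over exons, of which the annotation lists 5 for Hmox1, 6 for Nqo1, 5 for Sod1 and 5 for Sod2, and no other listed gene overlaps any of them.

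The SD rats were Sprague Dawley animals that served as healthy controls. The rats of the other groups were of the Zucker Diabetic Sprague Dawley (ZDSD) line, which becomes obese and diabetic. They had a sham laparotomy (SHAM), Roux-en-Y gastric bypass (RYGB), or the bypass followed by fenofibrate, metformin, ramipril and rosuvastatin in the chow (RYGB-FMRR). All rats were male by the study's methods and 37 weeks old by the labels, although the methods place sham surgery at a younger age than bypass. The methods also place the bypass of RYGB-FMRR a week earlier than that of RYGB. Drugs and week of surgery cannot be told apart between these groups. All 3 ZDSD groups had insulin in the week before surgery. The methods describe surgery and insulin for the ZDSD groups only. Strain, diabetes, surgery and insulin therefore cannot be told apart where a ZDSD group is set against SD. The effects of the 4 drugs, given together, cannot be told apart from each other. The study asked what the drugs add to the bypass in diabetic kidney disease.

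Hmox1 encodes heme oxygenase-1, which breaks heme down to biliverdin, iron and carbon monoxide and is strongly induced by heme and by oxidants. Nqo1 encodes a quinone reductase of the cytosol. Both are classical targets of the transcription factor Nrf2, which binds antioxidant response elements in the DNA. The superoxide dismutases turn superoxide into hydrogen peroxide, Sod1 (copper and zinc) mainly in the cytosol and Sod2 (manganese) in the mitochondrial matrix, and proximal tubule cells, which fill most of the renal cortex, are rich in mitochondria.

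A promoter for 3 of the 4 genes was found in the RefSeq sequences used. The 250 bases before the start of Nqo1, Sod1 and Sod2 in the build GRCr8 are shown because the 2 dismutases were both lower in SHAM and RYGB than in SD on the adjusted p, and Nqo1 is a target of Nrf2. Positions and strands of the windows are those of GRCr8, where Nqo1 and Sod2 lie on the minus strand although rn5 lists them on the plus strand. This difference between the builds was not examined. Capitals mark matches, on either strand, to the core of the antioxidant response element (TGACNNNGC, where N is any base), to a GC box (GGGCGG) and to a TATA box (TATAAA), and no matches overlap.
Nqo1, chr19:52220268-52220517, minus strand: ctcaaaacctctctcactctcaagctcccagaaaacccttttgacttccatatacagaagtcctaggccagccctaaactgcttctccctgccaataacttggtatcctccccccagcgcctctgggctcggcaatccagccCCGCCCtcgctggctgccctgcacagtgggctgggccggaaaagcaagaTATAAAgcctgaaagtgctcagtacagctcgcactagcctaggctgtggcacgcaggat
Sod1, chr11:42942573-42942822, plus strand: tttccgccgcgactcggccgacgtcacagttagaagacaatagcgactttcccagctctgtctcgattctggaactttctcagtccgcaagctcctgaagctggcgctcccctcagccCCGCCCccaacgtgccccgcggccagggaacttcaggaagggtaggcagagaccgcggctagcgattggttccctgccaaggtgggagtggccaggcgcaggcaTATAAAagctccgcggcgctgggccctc
Sod2, chr1:50050169-50050418, minus strand: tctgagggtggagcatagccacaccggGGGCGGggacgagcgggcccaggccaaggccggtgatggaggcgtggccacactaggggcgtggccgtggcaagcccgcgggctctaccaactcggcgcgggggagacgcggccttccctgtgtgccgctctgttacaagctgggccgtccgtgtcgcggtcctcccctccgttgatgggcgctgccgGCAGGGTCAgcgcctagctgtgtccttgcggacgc
Sod1 and Nqo1 each held 1 GC box and 1 TATA box, with the TATA box 28 bases before the start in Sod1 and 59 bases before it in Nqo1. Sod2 held 1 GC box, no TATA box, and 1 match to the response element core on the opposite strand, 35 bases before the start. Of 33469 promoter windows of the same length, 10.1% held the response element core, 30.5% the GC box and 12.9% the TATA box. The Sod2 window was the richest in G and C of the 3, at 71.6% against 63.2% in Sod1 and 56.4% in Nqo1. Nqo1 and Sod1 held no match to the response element core in these 250 bases, and sequence farther before the start was not searched. A match of letters is a description of the window and says nothing of binding in these rats.

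The libraries used came from 6 rats in SD, 7 each in SHAM and RYGB-FMRR, and 9 in RYGB, with total counts from 14502127 to 27597901. Another 2 SHAM libraries, with totals of 121511 and 101534, were left out. The scaling factors of the TMM normalization, which correct totals for the make-up of each library, were 1.012 to 1.123 in SHAM and 0.914 to 1.011 in SD, so that these groups did not overlap in them. They were 0.98 to 1.06 in RYGB and 0.931 to 1.004 in RYGB-FMRR. Differences are log2 fold changes of the first group named against the second, with their standard errors (SE), from edgeR's quasi-likelihood test in a model of the 4 groups. A difference passed the test with a fold change of at least 1.3, or 0.38 on the log2 scale, and an adjusted p under 0.05. In whole cortex, fewer cells of a type and less RNA per cell cannot be told apart.

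Sod1 was by far the most abundant of the 4 messages. Per kilobase of gene length, from normalized counts per 1000000 counts of a library (RPKM), the only scale on which levels are compared between genes, Sod1 averaged 1020 over the 29 rats, above 99.8% of the genes tested. Sod2 averaged 142, above 95.6% of them, and Nqo1 and Hmox1 averaged 7.67 and 6.99, above 39.7% and 37.7%. The Hmox1 mean, and with it the Hmox1 rank, was raised by a single SD animal, rat 357, at 96 RPKM. Neither was recomputed without that rat, so the closeness of the Hmox1 and Nqo1 means is not a typical level. The order Sod1, then Sod2, then the 2 low genes held in every group by median RPKM. Median RPKM of Sod1 was 1450 (SD), 826 (SHAM), 859 (RYGB) and 1120 (RYGB-FMRR), where Sod2 had 164, 141, 122 and 148. Nqo1 had median RPKM values of 8.82, 7.23, 7.37 and 6.7 in the same order of groups, and Hmox1 6.91, 5.68, 2.25 and 2.57.

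The genes also differed in how tightly rats of a group agreed. The standard deviation within groups of log2 CPM, normalized counts per 1000000 not divided by length, was 0.93 for Hmox1, larger than in 98.7% of the genes tested, and 0.09 for Sod2, larger than in 8.8% of them. Nqo1 and Sod1 lay between, at 0.23 and 0.22, against a median of 0.18 over all genes. A small change was therefore easier to see in Sod2 than in the other 3 genes. The Hmox1 value was raised by SD rat 357 and was not recomputed without it. Within SD alone, the standard deviation of Hmox1 was 1.77 with that rat and 0.59 without it. In SHAM, RYGB and RYGB-FMRR it was 0.65, 0.37 and 0.62.

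**Figure D1:**
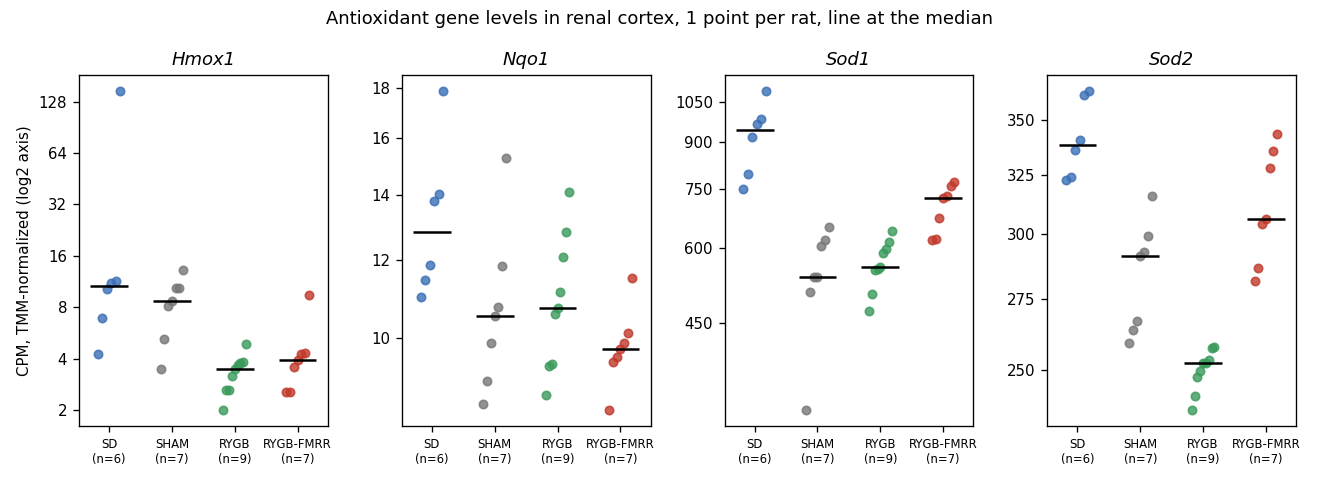
TMM-normalized CPM (log2 axis) of each gene in each rat, with a panel per gene, 1 point per rat and a line at the group median (n = 6 in SD, 7 in SHAM and RYGB-FMRR, 9 in RYGB). Sod1 and Sod2 in SD lie above every SHAM and RYGB rat, and 1 SD rat stands at 148 CPM of Hmox1, far above the other 28.

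Heme oxygenase-1 was lower in both bypass groups than in SD, and its comparisons with SHAM turned on a single SD animal. Hmox1 reached 4.3, 10.6 and 148 CPM (lowest, median and highest) in the 6 SD rats and 3.49, 8.76 and 13.2 CPM in the 7 SHAM rats. It was at 2, 3.48 and 4.88 CPM in the 9 RYGB rats and at 2.55, 3.97 and 9.45 CPM in the 7 RYGB-FMRR rats. The value of 148 CPM, from 2905 reads, belonged to SD rat 357. The ranges of the 4 groups overlapped, with most bypass rats at the low end. Rat 357 had 12.9 times the level of the next SD rat and 11.2 times that of the next highest of all rats, and no other gene tested stood as far above all other rats in that animal. Without rat 357, the SD rats ran from 4.3 to 11.4 CPM with a median of 10.2, and lay within the range of SHAM.

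With all rats, Hmox1 was lower in SHAM than in SD (log2 fold change -1.90, SE 0.56, edgeR adjusted p = 0.00956), but the difference was -0.04 (SE 0.30, adjusted p = 0.93) without rat 357. RYGB and SHAM differed by -1.35 (SE 0.54, 95% interval -2.44 to -0.25, edgeR adjusted p = 0.0919) with all rats, which did not pass the test. Without rat 357, which belongs to neither group but widens the shared estimate of the spread, the same difference had an SE of 0.27 and an adjusted p of 0.00159. In 6 of the 7 SHAM rats Hmox1 was above its level in all 9 RYGB rats, and SHAM rat 340, at 3.49 CPM, was the exception.

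No difference in Hmox1 between the bypass with and without the drugs passed the test. RYGB-FMRR against SHAM gave -0.96 (SE 0.56, 95% interval -2.11 to 0.19, edgeR adjusted p = 0.233) with all rats and -0.96 (SE 0.28, adjusted p = 0.0149) without rat 357. RYGB-FMRR against RYGB gave 0.39 (SE 0.55, 95% interval -0.74 to 1.52, adjusted p = 0.692), and this wide interval holds both a lower and a more than doubled level. RYGB-FMRR rat 324, at 9.45 CPM, stood above the other 6 rats of its group, which reached at most 4.32 CPM. When it was left out together with rat 357, the differences were -1.27 from SHAM (adjusted p = 0.000915) and 0.08 from RYGB (adjusted p = 0.88).

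Both bypass groups also had less Hmox1 than SD. RYGB differed from SD by -3.25 (SE 0.55, edgeR adjusted p = 3.68e-05) and RYGB-FMRR by -2.86 (SE 0.58, edgeR adjusted p = 0.000416). These differences passed the test without rat 357 too, but shrank to -1.39 (SE 0.29, adjusted p = 0.000469) and -1.0 (SE 0.30, adjusted p = 0.0136). Of the 9 RYGB rats, 8 were below every SD rat, as were 5 of the 7 RYGB-FMRR rats. DESeq2, run as an alternative, gave Hmox1 differences of -3.26 and -2.87 but no adjusted p for this gene.

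**Figure D2:**
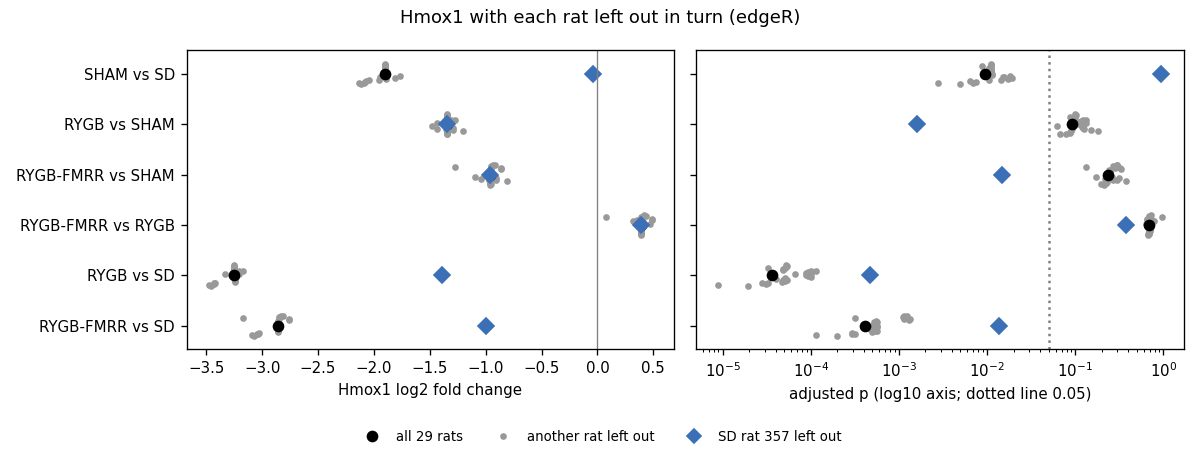
Log2 fold change of Hmox1 (left) and its edgeR adjusted p (right, log10 axis, dotted line at 0.05) in the 6 comparisons, with all 29 rats (black), with SD rat 357 left out (blue) and with each other rat left out (grey). Leaving out rat 357 moved SHAM vs SD from -1.90 to -0.04 and brought both comparisons of a bypass group with SHAM below 0.05, which no other single rat did.

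Nqo1, the other Nrf2 target, passed the test in 1 of the 6 comparisons. SD rats had 11, 12.8 and 17.9 CPM (lowest, median and highest), SHAM rats 8.56, 10.5 and 15.3, RYGB rats 8.74, 10.7 and 14.1, and RYGB-FMRR rats 8.43, 9.75 and 11.5. All groups overlapped. Nqo1 was lower in RYGB-FMRR than in SD, by a log2 fold change of -0.44 (SE 0.13, edgeR adjusted p = 0.00847), and 6 of the 7 RYGB-FMRR rats were below every SD rat. Without SD rat 356, the highest of its group, the difference was -0.34 and under the 1.3-fold threshold.

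The Nqo1 differences of SHAM and of RYGB from SD did not pass the test. The log2 fold changes from SD were -0.30 (SE 0.13, edgeR adjusted p = 0.0632) in SHAM and -0.28 (SE 0.12, adjusted p = 0.0624) in RYGB. Without SHAM rat 340, which had the highest Nqo1 and the lowest Hmox1 of its group, SHAM was lower than SD by -0.40 (adjusted p = 0.00861). Between RYGB and SHAM the difference was 0.02 (95% interval -0.21 to 0.26, adjusted p = 0.923), and its sign was not settled by these data. RYGB-FMRR differed by -0.14 from SHAM (95% interval -0.39 to 0.11, adjusted p = 0.443) and by -0.16 from RYGB (95% interval -0.40 to 0.07, adjusted p = 0.383).

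Sod1, the cytosolic dismutase, was lower in every ZDSD group than in SD. SD rats had 752, 941 and 1090 CPM (lowest, median and highest), SHAM rats 322, 537 and 650, RYGB rats 470, 558 and 640, and RYGB-FMRR rats 619, 726 and 771. All SHAM and all RYGB rats lay below all SD rats. The RYGB-FMRR median lay between, and the range of RYGB-FMRR overlapped that of every other group. SHAM differed from SD by a log2 fold change of -0.77 (SE 0.11, edgeR adjusted p = 8.07e-06) and RYGB by -0.70 (SE 0.11, adjusted p = 7.54e-06), that is, SD had 1.7 and 1.63 times as much. RYGB-FMRR differed from SD by -0.39 (SE 0.11, edgeR adjusted p = 0.00849), and 5 of its 7 rats were below every SD rat. This last fold change lay just past the 1.3-fold threshold and was between -0.38 and -0.34 when any 1 of 5 rats, SD replicates 3, 4 and 6 and RYGB-FMRR replicates 4 and 6, was left out.

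Between RYGB and SHAM no Sod1 difference passed, and with the drugs Sod1 was higher on the adjusted p than in either group. RYGB and SHAM differed by 0.06 (SE 0.10, 95% interval -0.14 to 0.27, edgeR adjusted p = 0.729). The sign of this difference turned, to -0.03, without SHAM rat 333, whose 322 CPM was the lowest Sod1 level of all rats. That library had the smallest total and the largest TMM factor of the 29, and their part in its Sod1 level was not tested. RYGB-FMRR differed from SHAM by 0.38 (SE 0.11, edgeR adjusted p = 0.0121), which passed on the adjusted p and missed the 1.3-fold threshold in the third decimal, with 5 of 7 RYGB-FMRR rats above every SHAM rat. Without SHAM rat 333 this difference was 0.28 (edgeR adjusted p = 0.0176). RYGB-FMRR differed from RYGB by 0.31 (SE 0.10, edgeR adjusted p = 0.0419), with 5 of 7 rats above every RYGB rat.

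The Sod1 difference between RYGB-FMRR and RYGB lay close to the limit of the adjusted p and did not keep it in every fit. It kept an adjusted p under 0.05 in 17 of 29 fits with a single rat of any group left out. The highest adjusted p, without RYGB-FMRR replicate 8, was 0.092. With 2 surrogate variables the difference was 0.19 (adjusted p = 0.00423), and with no filter on low counts 0.31 (adjusted p = 0.063). With an offset for gene length it was 0.23 (adjusted p = 0.0929), where the listed length of Sod1, 650 bases, is shorter than that of all but 7.61% of the genes tested. Scaled to total counts alone it was 0.23 (adjusted p = 0.0577), and without rats 357 and 324 it was 0.30 (adjusted p = 0.0718). The differences of SHAM and RYGB from SD passed the test in all of these fits. Reads of Sod1 or Sod2 could be shared with near-identical copies elsewhere in the genome, which the counts do not resolve.

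Sod2, the mitochondrial dismutase, separated the groups most cleanly although its changes were small. It was at 323, 338 and 364 CPM (lowest, median and highest) in SD and at 259, 291 and 316 CPM in SHAM. In RYGB it was at 237, 252 and 258 CPM, a coefficient of variation of 2.81% over 9 rats, and in RYGB-FMRR at 282, 306 and 343 CPM. Every SHAM rat was below every SD rat, and every RYGB rat was below every rat of the other 3 groups.

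The order of Sod2 levels was SD, RYGB-FMRR, SHAM and RYGB, and its neighbours SD and RYGB-FMRR did not pass the test. RYGB differed from SD by a log2 fold change of -0.45 (SE 0.05, edgeR adjusted p = 5.44e-08), with 1.37 times as much in SD, the only one of the 6 Sod2 differences of at least 1.3-fold. The difference of SHAM from SD was -0.27 (SE 0.05, edgeR adjusted p = 0.00028), and that of RYGB from SHAM was -0.19 (SE 0.05, adjusted p = 0.00896), so Sod2 after the bypass was farther from SD than after sham surgery. RYGB-FMRR differed from RYGB by 0.32 (SE 0.05, edgeR adjusted p = 1.92e-05), from SHAM by 0.14 (SE 0.05, adjusted p = 0.0498) and from SD by -0.13 (95% interval -0.24 to -0.02, adjusted p = 0.0557).

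The Sod2 difference between RYGB-FMRR and SHAM had little margin. Its adjusted p was under 0.05 in 6 of 29 fits with a single rat of any group left out. It reached 0.124 without RYGB-FMRR replicate 8. It was 0.0581 with no filter, 0.119 with 2 surrogate variables, 0.132 with only those 2 groups and 0.0502 with robust dispersion. The other 4 Sod2 differences with an adjusted p under 0.05 kept it in all 29 of the fits with a rat left out, and RYGB-FMRR vs SD, which did not have it, came under it in 7.

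The scaling of the libraries bears on changes of this size. Scaled to total counts alone, without TMM factors, the median log2 fold change of all genes was 0.14 in SHAM vs SD and -0.13 in RYGB-FMRR vs SHAM, against 0.01 and -0.01 with TMM. On that scale Sod2 differed by -0.14 in SHAM vs SD (adjusted p = 0.00929) and by 0.02 in RYGB-FMRR vs SHAM (adjusted p = 0.78). It differed by -0.36 in RYGB vs SD (adjusted p = 1.33e-07), under the 1.3-fold threshold. RYGB-FMRR vs RYGB, at 0.23 (adjusted p = 0.000178), and RYGB vs SHAM, at -0.22 (adjusted p = 0.000567), passed on the adjusted p with either scaling.

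**Figure D3:**
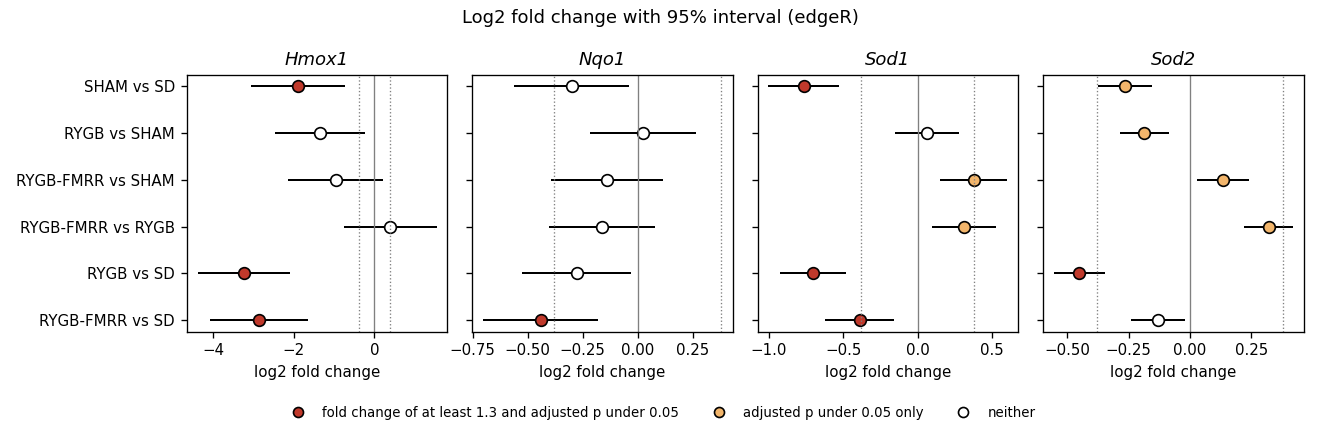
Log2 fold change (points) with its 95% interval (lines) of the 4 genes in the 6 comparisons, from the edgeR fit of 29 rats. Dotted lines mark a fold change of 1.3 in either direction, and the colours separate the 8 differences past fold and adjusted p (red) from the 6 past the adjusted p alone (orange), with the horizontal scale differing between panels.

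Counted together, the 4 genes were mostly lower in ZDSD rats than in SD. The direction counted in each comparison, here and in the next paragraph, was taken from the members' own differences. In SHAM vs SD, 2 of the 4 were lower by at least 1.3-fold and past the adjusted p, against 8% of all genes tested, 3 of 4 were lower on the adjusted p alone, against 17.8%, and 2 did not overlap, against 4.44%. In RYGB vs SD, 3 of 4 were lower on both thresholds, against 9.43%, the same number on the adjusted p alone, against 20.5%, and 2 did not overlap, against 5.54%. In RYGB-FMRR vs SD, 3 of 4 were lower on both thresholds, against 8.94%, and 3 on the adjusted p alone, against 15.4%. These 3 comparisons share the SD rats. Without rat 357, Hmox1 in SHAM vs SD (-0.04) and Sod1 in RYGB-FMRR vs SD (-0.37) no longer passed both thresholds.

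Among the ZDSD groups, none of the 4 genes passed both thresholds with all rats, on which the counts here rest. For Hmox1 this depended on SD rat 357, which belongs to none of these groups but widens the shared estimate of the spread. With that rat left out, Hmox1 passed both in RYGB vs SHAM (-1.35, edgeR adjusted p = 0.00159). It also passed both in RYGB-FMRR vs SHAM (-0.96, edgeR adjusted p = 0.0149). Not every member followed the direction counted: in RYGB-FMRR vs SHAM, Hmox1 (-0.96) and Nqo1 (-0.14) were lower. In RYGB vs SHAM, 0 of 4 were lower on both, where 3.86% of all genes were, 1 of 4 (Sod2) was lower on the adjusted p alone, against 7.17%, and Sod2 did not overlap, as in 0.785% of genes. At an unadjusted p under 0.05 by edgeR, 2 of the 4, Hmox1 and Sod2, were lower, against 15.2% of all genes. In RYGB-FMRR vs SHAM, 0 of 4 were higher on both, where 4.43% of all genes were. The 2 dismutases were higher on the adjusted p alone, against 10.2%, and at an unadjusted p under 0.05, against 15.9%. Sod1 was past both thresholds by DESeq2, but not with 2 surrogate variables (0.219). In RYGB-FMRR vs RYGB, 0 of 4 were higher on both, where 2.74% of all genes were, the 2 dismutases were higher on the adjusted p alone, against 7.32%, and at an unadjusted p under 0.05, against 13.6%, and Sod2 did not overlap, as in 1.96% of genes.

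Whether the genes varied together from rat to rat was examined in 6 pairs of genes, after each group was centred on its mean. Sod1 and Sod2 had the largest Pearson's r of the 6, at 0.40 over 29 rats (permutation p = 0.0583, adjusted p = 0.35; Spearman's rho 0.337, permutation p = 0.1). It was 0.222 without the 2 rats farthest in Sod1. Within single groups r was 0.901 among RYGB rats, 0.535 among SD rats, 0.40 among RYGB-FMRR rats and 0.311 among SHAM rats, values given as a description.

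**Figure D4:**
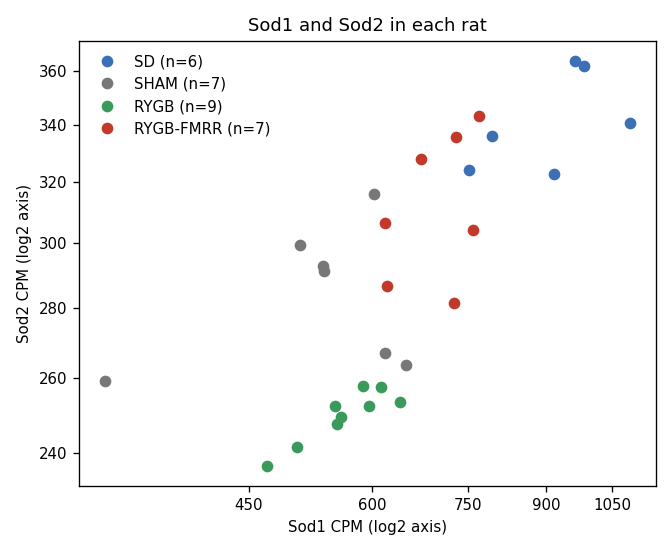
Sod1 against Sod2 in CPM (both log2 axes), 1 point per rat, coloured by group. RYGB rats lie below all others in Sod2 but share the Sod1 range of SHAM, and SHAM rat 333 is the point at 322 CPM of Sod1.

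For Hmox1 and Nqo1, the 2 Nrf2 targets, r was 0.038 (permutation p = 0.871, adjusted p = 0.94), and -0.15 without the 2 rats farthest in Hmox1. Its sign differed between groups, at 0.327 among SD rats, -0.585 among SHAM rats, 0.365 among RYGB rats and -0.329 among RYGB-FMRR rats, and these differences were not tested. The other 4 pairs had r from 0.016 to 0.306, with permutation adjusted p from 0.478 to 0.94.

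Over the 29 rats, the gene most like Sod1 was ENSRNOG00000014415 (chr19:62733736-62738068, plus strand), with Pearson's r of 0.963 on log2 CPM and 0.923 after the groups were centred. For Sod2 it was ENSRNOG00000038166 (chr6:117514754-117546551, minus strand), with r of 0.924 and, centred, 0.70. Both had the highest r of all other genes tested, and they share libraries and scaling with the gene they were compared with. The nearest genes to Hmox1 and Nqo1 were less alike, with the 3 highest r at 0.748 to 0.765 and at 0.712 to 0.734. Without rat 357, the 3 for Hmox1 had r of 0.634 to 0.664.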

How the data were processed

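The authors trimmed reads with Trim Galore, aligned them to rn5 with STAR and counted read pairs on the reverse strand of Ensembl genes with featureCounts 1.6.4; the deposited values are these raw counts. Libraries were ribosomal RNA-depleted and stranded, and a list of 37 mitochondrial genes held 0 counts.

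Groups came from the labels, which list 32 rats; 1 RYGB-FMRR rat was not analysed here, and libraries under 1000000 counts were left out, leaving 29 of 31. In edgeR 4.0.16 (R 4.3.3), counts were filtered (filterByExpr, minimum count 10), TMM-normalized and tested by quasi-likelihood, with 4 groups, no covariates and Benjamini-Hochberg adjustment over 14776 genes. A gene passed the test at 1.3-fold or more in either direction with an adjusted p under 0.05, as in the study's methods; "adjusted p alone" drops the fold. The SE is the size of the log2 fold change over the square root of F. CPM are TMM-normalized, and log2 CPM used a prior count of 2. The edgeR p-values set a group difference against the spread between these rats, which is estimated over the 4 groups together. Each rat was 1 library, and no pair of libraries was identical. Correlations used 100000 permutations within groups, two-sided (numpy 2.4.6). The edgeR steps and permutations were tested on simulated data. In simulated SHAM vs SD, 66 of 100 genes changed 1.5-fold and 100 of 100 changed 2-fold were called, as were 18 unchanged genes. Smaller changes, such as 1.3-fold, were not simulated.

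The members and lists were chosen with earlier results of these data known. Genes named were the 4 members and, for each, the genes with the highest r over the rats, printed for Sod1 and Sod2 only. No table used here pairs the identifiers with symbols, so the symbols of the members were taken as given and checked by chromosome; lists of other antioxidant genes and of cell type markers, chosen by symbol, were not analysed, nor was the tissue checked against markers. Alternatives were the Wald test of DESeq2 1.42.0, its size factors, no filter, low libraries kept, no fold threshold, 2 surrogate variables (sva 3.50.0), only the groups compared, and each rat left out. An offset for gene length, robust dispersion, total-count scaling and leaving out 2 rats were chosen after seeing the data.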

Additional observations from a re-analysis of the deposited data

Results flagged for a closer look

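In each of 16 combinations of a gene and a group, the highest and lowest rats were compared with the rest by Dixon's gap test, which chance passes in about 1 in 20 groups. A rat stood apart in 3 of the 16. SD rat 357 had the highest Hmox1 of 6 SD rats, at 7.21 log2 CPM against 3.53 for the next. RYGB-FMRR rat 324 had the highest Hmox1 of 7, at 3.25 log2 CPM against 2.14. SHAM rat 333 had the lowest Sod1 of 7, at 8.33 log2 CPM against 8.99. Rat 333 also had the largest TMM factor, 1.123, the smallest total, 14502127, and 72 genes more than 2-fold below all other rats, where no other rat had more than 15. The part of these library values in its Sod1 level was not tested. Without rat 333, Sod1 in RYGB vs SHAM was -0.03, with the call unchanged. Sod1 in RYGB-FMRR vs SHAM was 0.283 without rat 333, against 0.377 with all rats.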

How the results depend on the processing

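No paired analysis was possible because each group holds different rats and the replicate numbers only count rats within a group. With single rats left out, 675 of 696 values kept direction and side of the thresholds, 7 fell below them, 9 passed them and 5 changed sign. Every rat was left out for every comparison, so many of these fits drop a rat of neither group compared. Such a fit can change the shared spread and the scaling but barely the difference itself, so the tally overstates stability. This tally takes both thresholds, so it does not show differences lost on the adjusted p alone: Sod2 in RYGB-FMRR vs SHAM fell short of it in 23 of 29 such fits and Sod1 in RYGB-FMRR vs RYGB in 12. The ranges were -2.132 to -0.042 (Hmox1) and -0.40 to -0.199 (Nqo1) in SHAM vs SD, -1.481 to -1.20 (Hmox1), -0.028 to 0.123 (Nqo1) and -0.028 to 0.115 (Sod1) in RYGB vs SHAM, -1.271 to -0.812 (Hmox1) and 0.283 to 0.427 (Sod1) in RYGB-FMRR vs SHAM, and -0.489 to -0.34 (Nqo1) and -0.441 to -0.335 (Sod1) in RYGB-FMRR vs SD. Under the other alternatives, 236 of 258 values kept both. Sod1 in RYGB-FMRR vs SHAM, at 0.377, passed the 1.3-fold threshold with DESeq2 (0.38), its size factors (0.38), no filter (0.389), the low libraries (0.406) and only the 2 groups compared (0.382). The same difference moved away from the threshold with 2 surrogate variables (0.219), total counts alone (0.266) and the length offset (0.321). Without rats 357 and 324 it was 0.368. Without the fold threshold, Sod2 passed in SHAM vs SD (-0.265), RYGB vs SHAM (-0.186), RYGB-FMRR vs SHAM (0.135) and RYGB-FMRR vs RYGB (0.321), and Sod1 in both comparisons of RYGB-FMRR with a ZDSD group (0.377 and 0.313). With 2 surrogate variables, Hmox1 in SHAM vs SD (-1.734) and Sod1 in RYGB-FMRR vs SD (-0.321) no longer passed, and Nqo1 in RYGB vs SHAM was -0.012; it was -0.005 with total counts alone, where Sod2 in RYGB vs SD (-0.359) no longer passed. With only the groups compared, Hmox1 no longer passed in SHAM vs SD (-1.897) and passed in RYGB vs SHAM (-1.348) and RYGB-FMRR vs SHAM (-0.951). Without rats 357 and 324 these were -0.042, -1.348 and -1.269. Where no value above shows it, the cause was not tested. The correlation of Hmox1 with Nqo1 was -0.287 with the low libraries kept. DESeq2 gave no adjusted p for Hmox1 in any comparison. Over all genes, 2744 passed in SHAM vs SD (5207 on the adjusted p alone), 790 in RYGB vs SHAM (1903), 1793 in RYGB-FMRR vs SHAM (3242), 674 in RYGB-FMRR vs RYGB (1699), 2884 in RYGB vs SD (6002) and 2473 in RYGB-FMRR vs SD (4537). Depth limited Hmox1 most, with 37 reads in the lowest rat.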

Other observations

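The 2 SHAM libraries left out for their totals held few reads of these genes. Rat 343 had 65 reads of Sod1 (535 CPM by total counts, exact 95% binomial interval 413 to 682) and 34 of Sod2 (280 CPM, 194 to 391). It had 4 reads of Hmox1 (32.9 CPM, 8.97 to 84.3) and 0 of Nqo1, which allows up to 24.7 CPM by a floor of 3 counts. Rat 348 had 48 reads of Sod1 (473 CPM, 349 to 627), 27 of Sod2 (266 CPM, 175 to 387), 1 of Nqo1 (9.85 CPM, 0.249 to 54.9) and 0 of Hmox1, which allows up to 29.5 CPM. The intervals cover counting error only. On Sod1 and Sod2 the total-count values of both libraries lay within the TMM-normalized range of the other SHAM rats. For Sod1 in rat 348 this rests on the outlying rat 333, at 322 CPM, as the next lowest SHAM rat had 507 CPM. The scales differ, so this places the 2 libraries only roughly. On Hmox1 and Nqo1 their depth could not place them.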
